A study of Arabidopsis thaliana with 12 samples.

Results

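The WOX genes other than WUS were described across 3 kinds of Arabidopsis callus and seedlings. WOX stands for WUSCHEL-related homeobox, a plant family of transcription factors. The members were 10 loci chosen from a list of locus codes, and each was matched to the locus codes that the array files give for their probes. They were WOX1 (AT3G18010), WOX2 (AT5G59340), WOX4 (AT1G46480), WOX5 (AT3G11260), WOX8 (AT5G45980), WOX9 (AT2G33880), WOX11 (AT3G03660), WOX12 (AT5G17810), WOX13 (AT4G35550) and WOX14 (AT1G20700). These are 10 of 25665 loci with a probe, and each of the 10 was read by 1 probe. Transcripts were measured on 12 one-colour Agilent arrays, 3 in each of 4 groups. The 35S:WIND1 calli were formed by Col-0 plants that carry WIND1, a wound-induced AP2/ERF transcription factor, behind the constitutive 35S promoter, with no auxin added. T87 calli were wild type, came from the T87 cell line and were kept with 500 nM NAA. The 2,4-D-induced calli were wild type and kept with 500 µg/L 2,4-D. Control seedlings were intact wild-type Col-0 plants aged 14 days and untreated. NAA and 2,4-D are synthetic auxins, and all material grew on solid MS medium. T87 is a single long-kept culture, the label gives no line number for 35S:WIND1, and each array holds a different plant or callus per the labels. The design asks how callus made through WIND1 compares with auxin-kept calli and with intact plants.

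WOX proteins bind DNA through a homeodomain and act mostly in and around stem cells. The youngest clade, which holds WUS, WOX1, WOX2, WOX4 and WOX5, largely represses transcription through TOPLESS corepressors. WUS keeps the shoot stem cells, WOX5 the root stem cells and WOX4 the vascular cambium. WOX8, WOX9, WOX11 and WOX12 form an intermediate clade with roles in the early embryo and in new root founder cells. WOX13 and WOX14 belong to the oldest clade, which is expressed widely. Callus raised on auxin-rich medium is known to follow a lateral root programme in which WOX11, WOX12 and WOX5 take part. Nucleotide and protein sequences of the members were not used here, so no sequence is shown.

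Levels are log2 processed signals relative to the 75th percentile of each array, so 0 is the signal of a fairly bright probe and a step of 1 is a doubling. They were compared only within a probe. Replicates 1, 2 and 3 of every group lay on slides 1, 2 and 3, and each group kept to its own place on the slides, so place and group cannot be told apart. A gene was called where limma gave a Benjamini-Hochberg adjusted p under 0.05 over all 21347 genes tested and a change of 2-fold or more. Where no array of the dimmer group was well above background, the fold is a bound ("at least"), taken on each array of that group against the higher of the gene's own signal and the lowest signal of any probe well above background there. A standard error (SE) is that of a log2 change. The 75th percentile was 1755 to 3716 units per array, and the share of spots well above background was 57.1% to 65.9%. The SD of a gene over replicates had a median of 0.36 in 35S:WIND1 calli, 0.18 in T87 calli, 0.20 in 2,4-D-induced calli and 0.11 in seedlings. Leaf and photosynthesis markers summed to 256 to 378 times the 75th percentile in 35S:WIND1 calli, 330 to 392 in T87 calli and 16.6 to 44.5 in 2,4-D-induced calli, against 1154 to 1472 in seedlings. In such bulk tissue, fewer cells of a type and less RNA per cell cannot be told apart.

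The 3 kinds of callus differed in which WOX genes were highest. The 2,4-D-induced calli held the highest mean of 4 members (WOX5, WOX11, WOX12 and WOX14), 35S:WIND1 calli that of 3 (WOX4, WOX8 and WOX13), T87 calli that of 1 (WOX9) and seedlings that of 2 (WOX1 and WOX2). Neighbours in these orders did not always differ beyond their spread, as the values below show. In 35S:WIND1 calli over seedlings, 3 of the 10 members were called, WOX8 and WOX5 higher and WOX1 lower, beside 32.1% of all genes. In T87 calli over seedlings 4 were called, WOX8 and WOX9 higher and WOX1 and WOX5 lower, beside 47.4% of all genes. In 2,4-D-induced calli over seedlings 5 were called, all higher, namely WOX5, WOX12, WOX11, WOX14 and WOX8, beside 42.8%. These 3 comparisons share the seedling arrays. Over all genes, 12.5% were called higher and 19.6% lower in the first of these comparisons, 20.8% and 26.5% in the second, and 18.6% and 24.2% in the third. The members' shares called lie near those of all genes, so their number is not a result about the family.

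**Figure D1:**
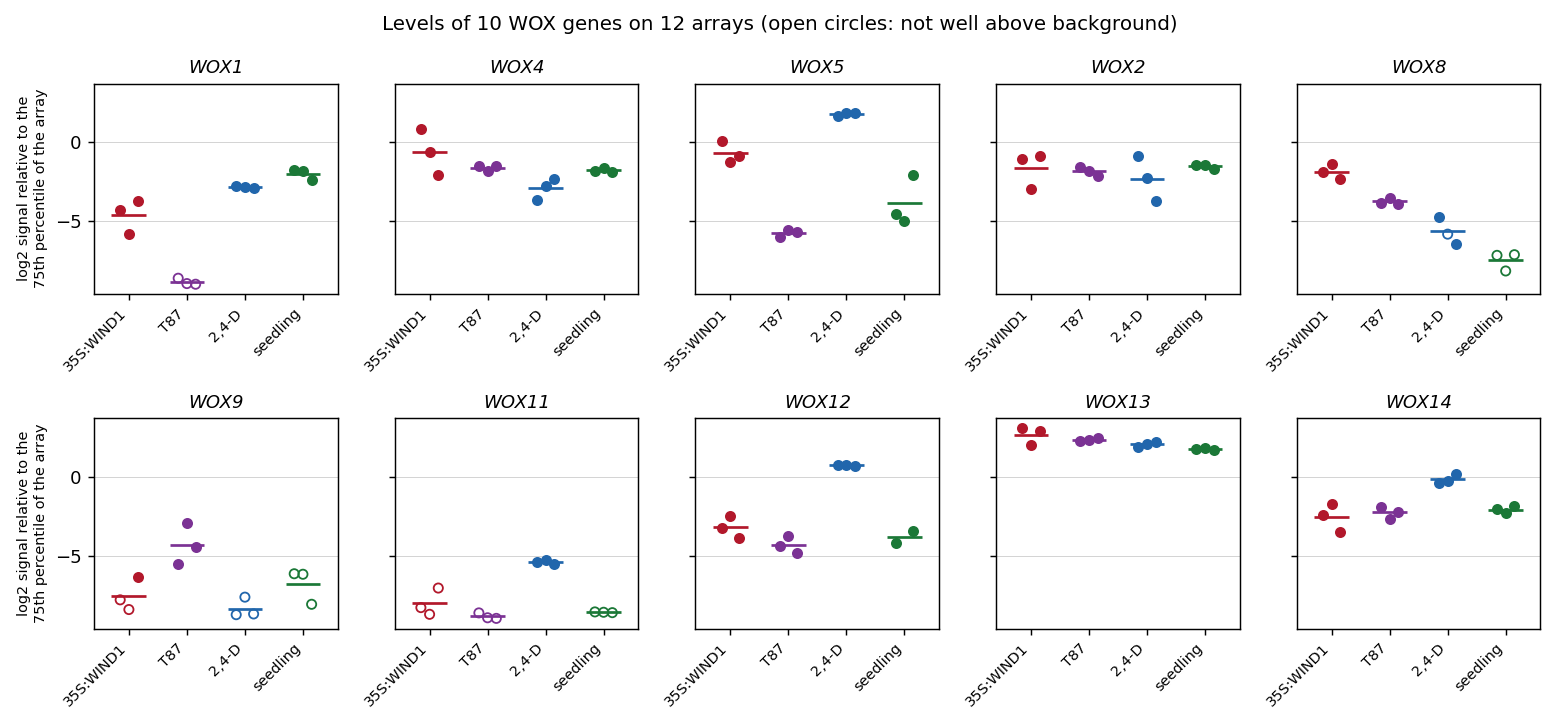
Log2 level of each of the 10 WOX genes on the 12 arrays, over that array's 75th percentile (vertical axis), with the 3 kinds of callus left of the seedlings. A point is 1 array, an open point was not well above background, and a bar is the group mean. WOX5 sits at 1.64 to 1.88 in 2,4-D-induced calli, and WOX8 at -2.35 to -1.34 in 35S:WIND1 calli.

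Between the calli, 5 members were called in 35S:WIND1 over T87 calli (36.8% of all genes), 7 in 35S:WIND1 over 2,4-D-induced calli (28.5%) and 7 in T87 over 2,4-D-induced calli (38.9%). By direction these were 4 higher and 1 lower (20% and 16.8% of all genes), 2 higher and 5 lower (16.8% and 11.7%), and 2 higher and 5 lower (19.7% and 19.2%). In all, 31 of 60 member comparisons were called. All 31 had the same sign on every slide with a value, and the arrays of both groups lay apart in 30 of them, readings at background included. Both largely follow from the call itself. Among all 10 members, called or not, arrays lay apart for 4, 6 and 8 in 35S:WIND1, T87 and 2,4-D-induced calli over seedlings. Over all genes these shares were 62.2%, 80.9% and 78.8%. For the comparisons between calli, in the order above, arrays lay apart for 4, 7 and 9 members, beside 61.4%, 53% and 71.1% of all genes. WOX5 and WOX8 were called in all 6 comparisons, WOX1 in 5, WOX12 in 4, WOX9, WOX11 and WOX14 in 3 each and WOX4 in 1. WOX2 and WOX13 were called in none by limma. Another background correction, normexp on the spot and local background signals, ended 21 of the 31 calls. The 10 it kept were those of WOX14 in 3 comparisons, of WOX5 and WOX12 in 3 each and of WOX4 in 1. WOX2, WOX4, WOX5, WOX13 and WOX14 were well above background on all 12 arrays, and WOX12 on the 11 that gave a value. WOX1, WOX8, WOX9 and WOX11 entered the test through the groups in which they were bright, so some difference was bound to appear for them.

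**Figure D2:**
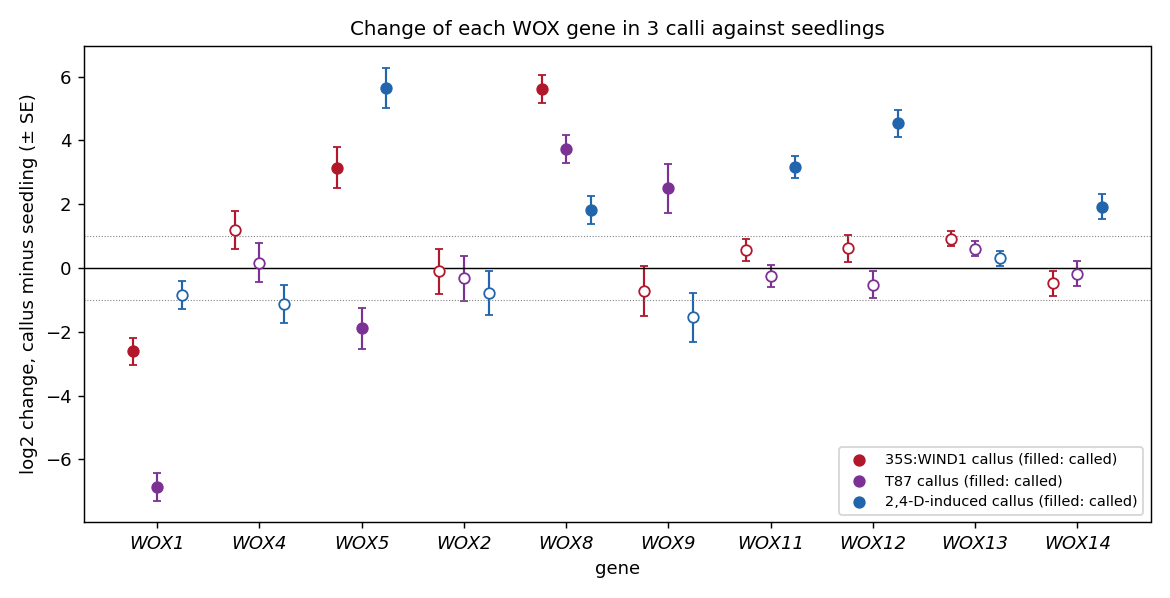
Log2 change of each WOX gene (horizontal axis) in 35S:WIND1, T87 and 2,4-D-induced calli, each minus seedlings, with bars of 1 SE. Filled points were called, dotted lines mark 2-fold, and changes of dim genes are fitted values rather than bounds. WOX8 is called above 0 in all 3 calli, and WOX5 lies above 0 in 2 of them and below 0 in T87 calli.

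WOX5, which keeps the quiescent centre of the root in its state and holds back differentiation of the columella stem cells, had the widest range of the 10. Its levels were 0.06, -1.28 and -0.90 in 35S:WIND1 calli, -6.02, -5.55 and -5.66 in T87 calli and 1.64, 1.88 and 1.86 in 2,4-D-induced calli. The seedling arrays gave -4.52, -4.96 and -2.07. The 4 groups did not overlap, but seedling replicate 3 stood well above the other 2 seedling arrays. WOX5 was 49.96-fold higher in 2,4-D-induced calli than in seedlings (log2 change 5.64, SE 0.64, limma adjusted p = 3.11e-05), and by slide the change was 6.16, 6.84 and 3.93. It was 8.85-fold higher in 35S:WIND1 calli (log2 change 3.15, SE 0.64, limma adjusted p = 0.00238), and the log2 change by slide was 4.58, 3.69 and 1.17. Without seedling replicate 3 these changes were 6.53 and 4.04. The call in 35S:WIND1 calli ended with normexp, at a log2 change of 1.80 (adjusted p = 0.18). In T87 calli WOX5 was 3.71-fold lower than in seedlings (log2 change -1.89, SE 0.64, limma adjusted p = 0.0229), and the log2 change by slide was -1.495, -0.59 and -3.59. That call ended without seedling replicate 3 (log2 change -0.9995), without T87 replicate 1 (-1.75) and in a fit of these 2 groups alone (adjusted p = 0.0613). It also ended with quantile normalization (-1.07), median scaling (-1.02) and normexp (-0.98).

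Between calli, WOX5 gave the largest change of any member. It was 185-fold lower in T87 than in 2,4-D-induced calli (log2 change -7.53, SE 0.64, limma adjusted p = 4.85e-06), and the log2 change by slide was -7.65, -7.42 and -7.52. It was 32.8-fold higher in 35S:WIND1 than in T87 calli (log2 change 5.04, limma adjusted p = 9.03e-05). It was 5.65-fold lower in 35S:WIND1 than in 2,4-D-induced calli (log2 change -2.50, limma adjusted p = 0.0089), a call that normexp ended (-2.23, adjusted p = 0.106). So WOX5 was high both in a callus kept with auxin and in one that had none added, and low in the other callus kept with auxin.

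WOX7, the closest relative of WOX5, was at -3.37, -4.01 and -5.64 in 35S:WIND1 calli, -6.75, -5.61 and -6.84 in T87 calli and -1.98, -1.74 and -1.44 in 2,4-D-induced calli. In seedlings it was at -6.44, -6.47 and -5.17. Like WOX5 it was highest in 2,4-D-induced calli and next in 35S:WIND1 calli. In T87 calli and in seedlings 1 of 3 arrays each was well above background, and their difference of -0.38 was not called (limma adjusted p = 0.579). WOX7 was 19.7-fold higher in 2,4-D-induced calli than in seedlings (limma adjusted p = 0.000107) and 3.22-fold higher in 35S:WIND1 calli (adjusted p = 0.0334), where the arrays overlapped. Probe sequences were not used here, so how far each probe also reads its relatives was not tested, and this limit holds for WOX8 and WOX9, WOX11 and WOX12, and WOX10, WOX13 and WOX14 as well.

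Other genes of the root stem cell niche were mostly higher in the 2,4-D-induced calli and mostly lower in the other calli, where they were called. Of 13 listed genes, 6 were called higher and 2 lower in 2,4-D-induced calli than in seedlings, with a median log2 change of 0.31 beside 0.15 over all genes. PLT4/BBM and PLT1, AP2 factors that mark and maintain the niche, rose 49.9-fold and 46.5-fold, and SMB, a root cap NAC factor, rose 35.7-fold (limma adjusted p = 1.59e-05, 6.26e-08 and 8.56e-06). For 35S:WIND1 calli only SMB was called higher (4.05-fold, limma adjusted p = 0.00597) and 7 were called lower, at a median of -1.08 beside 0.07. PLT2 was at least 6.42-fold lower there and PLT4/BBM was also called lower, with 1 of 3 callus arrays well above background. JKD, a zinc finger partner of SHR and SCR, was at least 13.2-fold lower. In T87 calli 1 was called higher and 11 lower, at a median of -2.34 beside -0.0036. The WOX5 level of 35S:WIND1 calli thus stood beside niche genes that were mostly lower than in seedlings. Root tissue markers summed to 18.3 to 33.7 times the 75th percentile in 35S:WIND1 calli, 0.26 to 0.34 in T87 calli and 19.6 to 33.0 in 2,4-D-induced calli, against 32.1 to 39.1 in seedlings. Outside T87 calli most of each sum came from PYK10. Of the 7, 1 was called higher and 3 lower in 35S:WIND1 calli over seedlings (median log2 change -1.56), 7 lower in T87 calli (-5.73) and 4 lower in 2,4-D-induced calli (-3.99), CASP1 and GL2 among the lower in each. WER was not well above background in 35S:WIND1 and T87 calli. Their part in the WOX5 values was not tested.

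**Figure D3:**
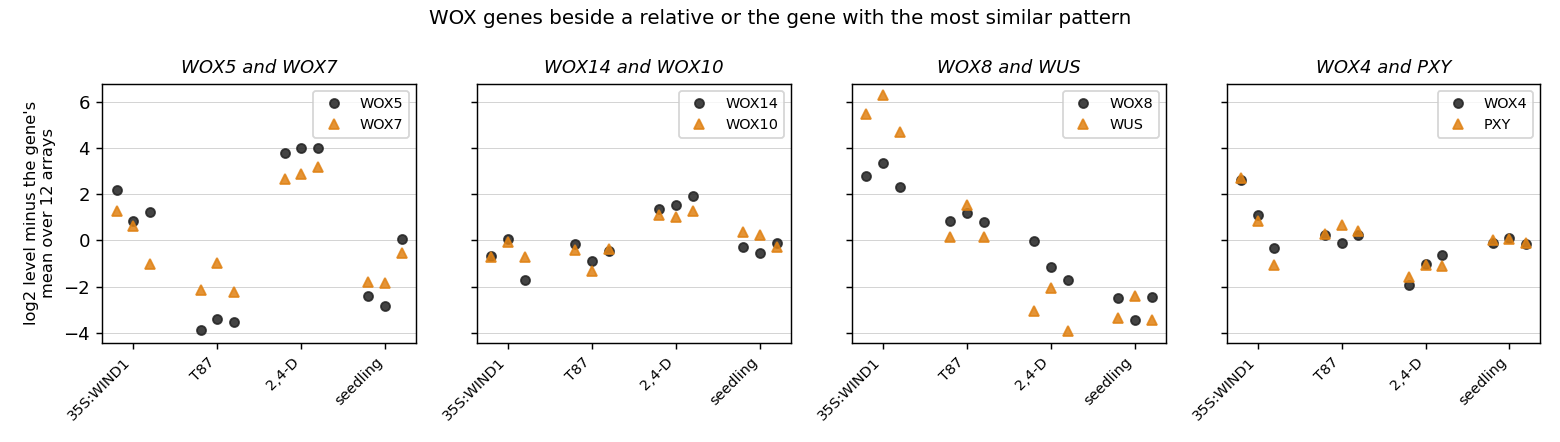
Log2 level minus the gene's own mean over 12 arrays for WOX5 and WOX7, WOX14 and WOX10, WOX8 and WUS, and WOX4 and PXY (circles for the first gene, triangles for the second), with the 3 kinds of callus left of the seedlings. WOX4 and PXY differ by a root mean square of 0.38 over the 12 arrays, while WUS is high in 35S:WIND1 calli and at background in 2,4-D-induced calli and seedlings.

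WOX1, which acts with WOX3 in the outgrowth of the leaf blade and its margin, was lower in 2 calli. Its levels were -4.26, -5.80 and -3.72 in 35S:WIND1 calli, -8.60, -8.93 and -8.98 in T87 calli and -2.73, -2.85 and -2.87 in 2,4-D-induced calli. Seedlings stood at -1.75, -1.79 and -2.41. No T87 array was well above background, and the 4 groups did not overlap. WOX1 was at least 25.4-fold lower in T87 calli than in seedlings (limma adjusted p = 5.65e-07), and the log2 change by slide was -6.85, -7.14 and -6.56. It was 6.12-fold lower in 35S:WIND1 calli (log2 change -2.61, SE 0.44, limma adjusted p = 0.000705), with -2.52, -4.01 and -1.31. The change of -0.83 in 2,4-D-induced calli was not called (limma adjusted p = 0.114). Without 35S:WIND1 replicate 2 the change in 35S:WIND1 calli was -2.01. Normexp ended both calls, at -2.34 (adjusted p = 0.0884) and -1.41 (adjusted p = 0.371). Between calli, WOX1 was at least 4.14-fold higher in 35S:WIND1 than in T87 calli and at least 14.2-fold lower in T87 than in 2,4-D-induced calli (limma adjusted p = 2.18e-05 and 1.61e-06). It was 3.43-fold lower in 35S:WIND1 than in 2,4-D-induced calli (limma adjusted p = 0.00703), and the log2 change of -1.78 became -1.18 without 35S:WIND1 replicate 2. Without that array the fitted change over T87 calli was 4.84 in place of 4.24. Normexp ended the calls between calli as well. The change became 0.92 for 35S:WIND1 over T87, -1.68 for T87 over 2,4-D-induced and -0.76 for 35S:WIND1 over 2,4-D-induced calli.

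Of 11 genes measured of the list for leaf margin and polarity, 3 were called higher and 8 lower in T87 calli than in seedlings, at a median log2 change of -6.56 beside -0.0036 over all genes. The genes of the lower side and margin FIL, KAN2 and YAB3 were at least 64.2-fold, 39.6-fold and 28.4-fold lower, and the genes of the upper side PHV, REV and PHB were 4.28-fold, 2.97-fold and 2.69-fold higher. In 35S:WIND1 calli 4 were called higher and 5 lower (median -0.84 beside 0.07), and in 2,4-D-induced calli 2 higher and 8 lower (median -2.06 beside 0.15). KLU, a cytochrome P450 that promotes organ growth, rose 8.23-fold in 35S:WIND1 calli and was called lower in 2,4-D-induced calli, where 1 of 3 arrays measured it (limma adjusted p = 0.0226 and 6.52e-05). AS2, another gene of the upper side, was called lower in all 3 kinds of callus, by at least 23.3-fold in T87 calli, with 1 of 3 arrays each well above background in 35S:WIND1 and 2,4-D-induced calli. The sums of the leaf markers given above also differ between these groups, and their part in the WOX1 values was not tested.

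WOX4, which promotes division of the vascular cambium downstream of the receptor kinase PXY, was uneven among the 35S:WIND1 calli. Its levels were 0.87, -0.60 and -2.04 in 35S:WIND1 calli, -1.50, -1.83 and -1.49 in T87 calli and -3.64, -2.75 and -2.35 in 2,4-D-induced calli. Seedling levels were -1.82, -1.64 and -1.88. The 3 arrays of 35S:WIND1 calli reached from the highest level of all 12 to below every seedling array. WOX4 was called in 1 comparison, 4.997-fold higher in 35S:WIND1 than in 2,4-D-induced calli (log2 change 2.32, SE 0.60, limma adjusted p = 0.0093), and the log2 change by slide was 4.51, 2.15 and 0.30. That call ended in a fit of these 2 groups alone (adjusted p = 0.0659), and the change was 1.59 without 35S:WIND1 replicate 1 and 3.05 without replicate 3. Over seedlings the change of 1.19 in 35S:WIND1 calli was not called (SE 0.60, limma adjusted p = 0.121), and the log2 change by slide was 2.69, 1.04 and -0.17. Without 35S:WIND1 replicate 3 it was called, at 1.91 (adjusted p = 0.00623), and so was the change over T87 calli, at 1.74 (adjusted p = 0.00893). The change of -1.14 in 2,4-D-induced calli over seedlings was not called (limma adjusted p = 0.119), though the arrays did not overlap. It was called in a fit of these 2 groups alone (adjusted p = 0.0224) and without 35S:WIND1 replicate 1 or 3 (0.0291 and 0.0305), which are not part of it but enter the shared spread.

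PXY, like WOX4, was highest on replicate 1 and lowest on replicate 3 of the 35S:WIND1 calli, while within T87 and 2,4-D-induced calli the replicates of both genes ranked differently. PXY was at 4.04, 2.19 and 0.28 in 35S:WIND1 calli, 1.61, 2.03 and 1.78 in T87 calli and -0.21, 0.27 and 0.23 in 2,4-D-induced calli. In seedlings it was at 1.38, 1.41 and 1.24. It was picked as the gene with the pattern most like that of WOX4 among 9269 tested genes with a symbol. Xylem markers, with XCP1 among them, summed to 75.3, 10.8 and 9.54 times the 75th percentile on the 3 arrays of 35S:WIND1 calli. The sums were 0.47 to 0.55 in T87 calli and 0.17 to 0.23 in 2,4-D-induced calli, against 6.35 to 7.75 in seedlings. All 8 xylem markers were well above background on the 3 arrays of 35S:WIND1 calli and of seedlings, 7 on those of T87 calli and 3 on those of 2,4-D-induced calli. The array of 35S:WIND1 calli with the highest WOX4 was thus the one with the highest xylem sum, while T87 calli had a low xylem sum and WOX4 levels of -1.83 to -1.49, against -1.88 to -1.64 in seedlings. Sums of the phloem markers were instead highest on replicate 2 of 35S:WIND1 calli (9.44, against 6.62 on replicate 1). Sums of the cambium genes described below were 53.7, 34.9 and 21.7 on these arrays, in the order of WOX4. The cambium list includes PXY, which was picked for its likeness to WOX4, so this order is partly built in. In 2,4-D-induced calli, where WOX4 was lowest, the phloem sums were 13.05 to 16.24 and the cambium sums 53.98 to 60.56. Both were the highest of the 4 groups, but the brightest genes weigh most in such sums. Of the phloem markers, SMXL5 was called higher and SUC2 and SEOR1 lower in 2,4-D-induced calli than in seedlings (median log2 change -1.67). The cambium sum includes TMO6, at a mean level of 4.59 in 2,4-D-induced calli against 0.53 in seedlings. The parts of xylem, phloem and cambium in the WOX4 values were not tested.

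Of 15 genes measured of the cambium list, 1 was called higher and 4 lower in 35S:WIND1 calli than in seedlings, at a median log2 change of 0.26 beside 0.07 over all genes. In T87 calli 3 were called higher and 7 lower (median -0.77 beside -0.0036), and in 2,4-D-induced calli 4 higher and 6 lower (median 0.31 beside 0.15). Called genes made up 33.3%, 66.7% and 66.7% of the list in these 3 kinds of callus, beside 32.1%, 47.4% and 42.8% of all genes. LBD4, a factor of the cambium border, was higher in all 3, by 3.83-fold, 4.59-fold and 13.4-fold (limma adjusted p = 0.000425, 9.24e-05 and 2.73e-06). CLE44, which encodes the ligand of PXY, rose 31.0-fold in 2,4-D-induced calli and 2.55-fold in T87 calli. The PXY-like receptor gene PXL1 was 11.6-fold lower in 35S:WIND1 calli and at least 24.0-fold lower in 2,4-D-induced calli. ANT, an AP2 factor of organ growth and cambium, was 155-fold lower in T87 calli, where 2 of 3 arrays measured it.

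WOX2, which patterns the apical part of the early embryo, showed no called change. Its levels were -1.04, -2.99 and -0.84 in 35S:WIND1 calli, -1.56, -1.82 and -2.15 in T87 calli and -0.88, -2.29 and -3.73 in 2,4-D-induced calli. The seedlings were at -1.41, -1.44 and -1.71. All groups overlapped, and the spread within 2 of the calli was larger than any difference between means. The changes over seedlings were -0.10, -0.32 and -0.78 for 35S:WIND1, T87 and 2,4-D-induced calli (SE 0.70 each, limma adjusted p = 0.908, 0.693 and 0.343). At this SE a 2-fold change could not be told from none.

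WOX8, known from the zygote and the basal cell line of the embryo, was called higher than in seedlings in all 3 kinds of callus. Its levels were -1.88, -1.34 and -2.35 in 35S:WIND1 calli, -3.85, -3.49 and -3.89 in T87 calli and -4.70, -5.81 and -6.41 in 2,4-D-induced calli. Seedling arrays read -7.15, -8.14 and -7.11. No seedling array and 2 of 3 arrays of 2,4-D-induced calli were well above background. The arrays of 35S:WIND1 calli lay above those of T87 calli, and those above all others, while replicate 3 of 2,4-D-induced calli, at -6.41, lay below the lowest signal well above background on every seedling array (-6.40 to -6.37), so its separation from seedlings cannot be read. WOX8 was at least 23.1-fold higher in 35S:WIND1 calli than in seedlings (limma adjusted p = 6.25e-06) and at least 6.26-fold higher in T87 calli (3.70e-05). Against the same limit it was 1.68-fold higher in 2,4-D-induced calli (0.00422). This last value is under 2-fold and no strict bound, since its mean includes replicate 2 (-5.81), which was not well above background. That call thus rests on fitted seedling readings at background. The fitted changes on the slides were 5.27, 6.79 and 4.76 for 35S:WIND1 calli. For T87 calli they were 3.31, 4.64 and 3.22, and for 2,4-D-induced calli 2.45, 2.33 and 0.70. Normexp ended all 3 calls, with changes of 1.66, 0.40 and 0.03. Between calli, WOX8 was 3.69-fold higher in 35S:WIND1 than in T87 calli and 13.7-fold higher than in 2,4-D-induced calli (limma adjusted p = 0.00423 and 8.22e-05). It was 3.71-fold higher in T87 than in 2,4-D-induced calli (limma adjusted p = 0.00381). Normexp ended these calls between calli too, with changes of 1.27, 1.63 and 0.36 in that order (limma adjusted p = 0.280, 0.194 and 0.797).

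WOX9, a sister of WOX8 needed for growth of the embryo and of the seedling's meristems, was instead highest in T87 calli. Its levels were -7.77, -8.38 and -6.35 in 35S:WIND1 calli, -5.50, -2.88 and -4.45 in T87 calli and -8.70, -7.60 and -8.66 in 2,4-D-induced calli. For seedlings the levels were -6.12, -6.15 and -8.05. It was well above background on all 3 T87 arrays, on 1 array of 35S:WIND1 calli and on no array of the other groups, and T87 replicate 2 was the brightest. WOX9 was at least 3.85-fold higher in T87 calli than in seedlings (limma adjusted p = 0.0157), and the log2 change by slide was 0.62, 3.27 and 3.599. That call ended without T87 replicate 2 (log2 change 1.80) and without seedling replicate 3 (1.86), and normexp turned it to -0.28. WOX9 was at least 4.55-fold higher in T87 than in 2,4-D-induced calli (limma adjusted p = 0.0012) and was called lower in 35S:WIND1 than in T87 calli (0.00503), with 1 of 3 arrays of 35S:WIND1 calli well above background. Leaving out 1 array moved the fitted change of that comparison between -3.84 (without T87 replicate 1) and -2.53 (without T87 replicate 2), and that of T87 over 2,4-D-induced calli between 4.66 and 3.35 with the same arrays left out. Over seedlings it was 3.11 without T87 replicate 1. Normexp ended both calls between calli. The change became 0.00065 for T87 over 2,4-D-induced calli and -0.22 for 35S:WIND1 over T87 calli (limma adjusted p = 0.9997 and 0.929). Without seedling replicate 3, 2,4-D-induced calli were also called lower than seedlings, although neither group measured the gene.

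Of 8 tested genes of the embryo axis, 2 were called higher and 2 lower in 35S:WIND1 calli over seedlings, 2 and 2 in T87 calli, and 3 and 1 in 2,4-D-induced calli. Called genes were thus 50% of the list each time, beside 32.1%, 47.4% and 42.8% of all genes. The median log2 changes of the list were -0.018, -0.21 and 0.52, beside 0.07, -0.0036 and 0.15 over all genes. ARF5/MP, the auxin response factor that sets up the embryonic root, was 4.18-fold, 3.57-fold and 6.53-fold higher (limma adjusted p = 0.000149, 0.000159 and 1.25e-05). WRKY2, the zygotic activator of WOX8, passed the p but not the 2-fold threshold, with log2 changes of 0.54, 0.57 and 0.69. The embryo regulators LEC1, L1L, LEC2, FUS3, ABI3 and AGL15 were all called higher in T87 calli, 6 of 6, at a median log2 change of 3.24 beside -0.0036 over all genes. LEC1 rose 91.6-fold and FUS3 52.3-fold there, and ABI3 at least 10.9-fold. For 35S:WIND1 calli 1 of the 6 was called higher, AGL15 by 2.91-fold. In 2,4-D-induced calli 2 were called higher and 2 lower. Summed levels of the 6 were 0.25 to 0.89 times the 75th percentile in 35S:WIND1 calli, 6.43 to 12.5 in T87 calli and 1.72 to 2.64 in 2,4-D-induced calli, against 0.23 to 0.27 in seedlings. WOX8 was therefore highest in a callus where these regulators were low, and WOX9 in the callus where they were high. Their part in either gene's values was not tested.

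WOX11, which starts adventitious root founder cells in response to auxin, was measured only in 2,4-D-induced calli. Its levels were -8.26, -8.68 and -7.02 in 35S:WIND1 calli, -8.59, -8.90 and -8.94 in T87 calli and -5.39, -5.27 and -5.50 in 2,4-D-induced calli. Levels in seedlings were -8.53, -8.55 and -8.58. The 3 arrays of 2,4-D-induced calli were dim but well above background, and the other 9 were not. WOX11 was at least 2.00-fold higher in 2,4-D-induced calli than in seedlings (limma adjusted p = 2.03e-05), and the log2 change by slide was 3.14, 3.28 and 3.08. It was at least 2.43-fold lower in 35S:WIND1 and at least 2.40-fold lower in T87 than in 2,4-D-induced calli (limma adjusted p = 0.000165 and 1.33e-05). Normexp ended all 3 calls, with changes of 0.20, -0.47 and -0.82.

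WOX12, which acts with WOX11, was likewise highest in 2,4-D-induced calli. Its levels were -3.22, -2.46 and -3.83 in 35S:WIND1 calli, -4.37, -3.75 and -4.83 in T87 calli and 0.78, 0.75 and 0.71 in 2,4-D-induced calli. In seedlings they were -4.18 and -3.41 on replicates 1 and 3. The spot of seedling replicate 2 was removed as an outlier by the scanner software's mark, at a level of 0.19 before removal, so the seedling value rests on 2 arrays. WOX12 was 23.2-fold higher in 2,4-D-induced calli than in seedlings (log2 change 4.54, SE 0.43, limma adjusted p = 1.64e-05), with 4.96 and 4.11 on the 2 slides that gave a value. With the outlier spot kept, an alternative added after seeing the data, the change was 3.21 and still called (adjusted p = 0.0108). WOX12 was 15.1-fold lower in 35S:WIND1 than in 2,4-D-induced calli and 33.4-fold lower in T87 than in 2,4-D-induced calli (limma adjusted p = 4.65e-05 and 4.66e-06). The changes of 0.62 in 35S:WIND1 calli and -0.53 in T87 calli over seedlings were not called (limma adjusted p = 0.244 and 0.295). The first turned to -0.70 with the outlier spot kept. A call of 2.22-fold in 35S:WIND1 over T87 calli (limma adjusted p = 0.0272) rested on overlapping arrays and ended without any of 4 single arrays, at adjusted p between 0.053 and 0.0977. It also ended with normexp, quantile normalization, median scaling, the deposited table, a fit of the 2 groups alone and the outlier spot kept.

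Genes of the founder cell and callus path were raised broadly in 2,4-D-induced calli. Of 11 listed, 9 were called higher over seedlings, at a median log2 change of 3.27 beside 0.15 over all genes. PLT3 and PLT7, AP2 factors of lateral root and callus formation, rose 33.2-fold and 19.0-fold, and LBD16, an auxin-induced factor of founder cells and a target of WOX11, rose 17.1-fold (limma adjusted p = 5.04e-07, 1.64e-07 and 5.66e-06). No gene of the list was called lower there by limma, and none was lower at an unadjusted p under 0.05. In 35S:WIND1 calli 4 were called higher and 2 lower (median 0.25 beside 0.07). ERF115, a wound-responsive factor, was at least 9.82-fold higher there, PLT7 26.2-fold and PLT5 12.7-fold, while LBD17 was at least 2.72-fold lower and LBD16 was not called (log2 change -0.63, adjusted p = 0.164). In T87 calli 5 were called higher and 3 lower (median -0.33 beside -0.0036), with LBD16 13.4-fold higher. The 5 include LBD18, which was not well above background in either group. LBD16 was at 0.23, 0.19 and 0.17 in T87 calli and 0.67, 0.55 and 0.41 in 2,4-D-induced calli, and the difference of -0.35 was not called (limma adjusted p = 0.429), while WOX5, WOX11 and WOX12 were each called lower in T87 than in 2,4-D-induced calli.

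**Figure D4:**
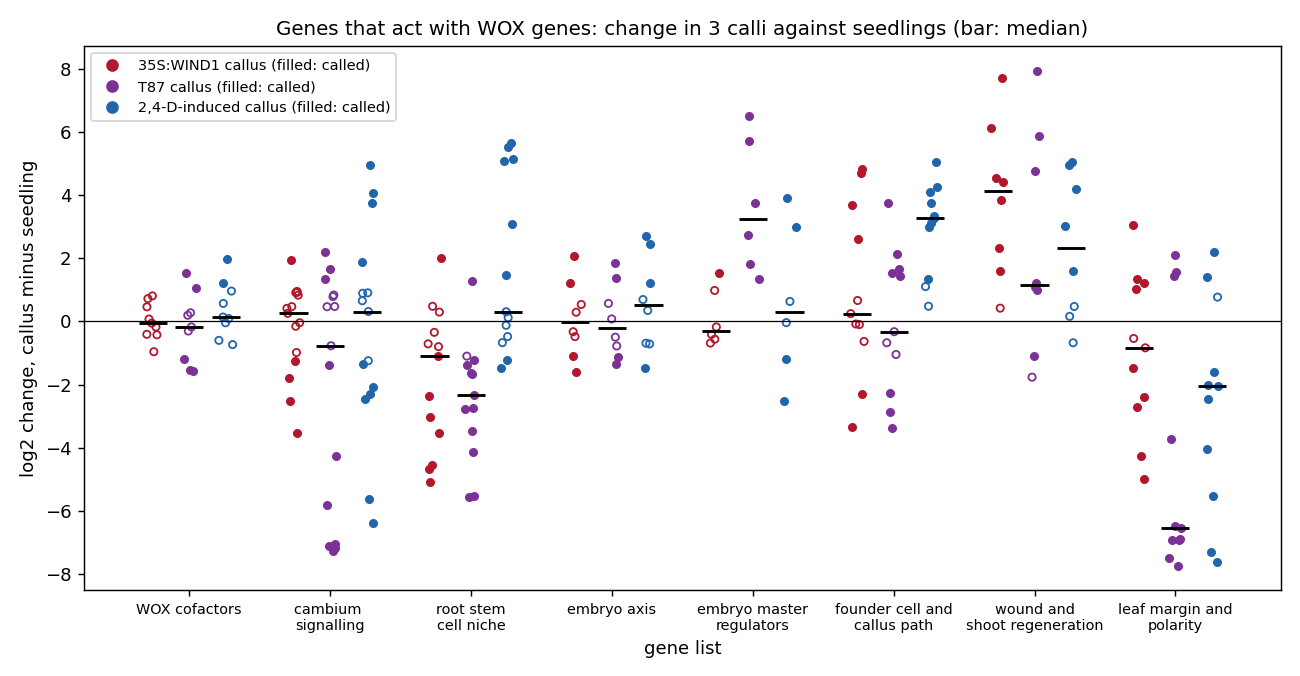
Log2 change over seedlings (vertical axis) of the genes of 8 lists (horizontal axis) in 35S:WIND1, T87 and 2,4-D-induced calli. A point is a gene, filled where called, and a bar is the median of the list; changes of genes at background are fitted values. The founder cell and callus list has its median at 3.27 in 2,4-D-induced calli, and the embryo master regulators at 3.24 in T87 calli.

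WOX13, the broadly expressed member of the oldest clade with known roles in callus growth and organ reconnection after wounding, varied little. Its levels were 3.104, 2.03 and 2.91 in 35S:WIND1 calli, 2.29, 2.36 and 2.45 in T87 calli and 1.91, 2.08 and 2.24 in 2,4-D-induced calli. In seedlings they were 1.75, 1.82 and 1.72. Every callus array lay above every seedling array. The change over seedlings was 0.92 in 35S:WIND1 calli (SE 0.24, limma adjusted p = 0.00848), 0.60 in T87 calli (0.0431) and 0.31 in 2,4-D-induced calli (0.265). The first 2 passed the p but not the 2-fold threshold. The changes on the slides were 1.36, 0.21 and 1.19 for 35S:WIND1 calli, 0.54, 0.54 and 0.72 for T87 calli and 0.16, 0.26 and 0.51 for 2,4-D-induced calli. Without 35S:WIND1 replicate 2 the first was called, at 1.24. The range of its group means was wider than in 25.3% of the genes tested.

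Genes of wound response and shoot regeneration were raised far more. Of 8 listed, 7 were called higher in 35S:WIND1 calli, 6 higher and 1 lower in T87 calli and 5 higher in 2,4-D-induced calli. Over all genes 12.5%, 20.8% and 18.6% were called higher there, and 19.6%, 26.5% and 24.2% lower. The median log2 changes of the list were 4.14, 1.15 and 2.31, beside 0.07, -0.0036 and 0.15 over all genes. The 1 lower, WIND4, was not well above background in either group. WIND1 itself is on the list and stands behind the 35S promoter in the 35S:WIND1 calli, so its rise there is built into the material. It was 4.97-fold higher in 35S:WIND1 calli than in seedlings, and whether its probe reads the transgene was not tested. ESR1, an AP2/ERF factor of shoot regeneration, rose 211-fold in 35S:WIND1 calli, 246-fold in T87 calli and 18.3-fold in 2,4-D-induced calli, with 2 of 3 seedling arrays well above background. CUC2, a NAC factor of organ boundaries, rose 23.4-fold, 27.5-fold and 33.3-fold.

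WOX14, which promotes vascular cell division and differentiation, was called higher over seedlings in the 2,4-D-induced calli. Its levels were -2.42, -1.69 and -3.47 in 35S:WIND1 calli, -1.90, -2.63 and -2.19 in T87 calli and -0.39, -0.22 and 0.20 in 2,4-D-induced calli. In seedlings they were -2.03, -2.29 and -1.85. Every array of 2,4-D-induced calli lay above the other 9, which overlapped. WOX14 was 3.78-fold higher in 2,4-D-induced calli than in seedlings (log2 change 1.92, SE 0.39, limma adjusted p = 0.00155), and the log2 change by slide was 1.63, 2.07 and 2.05. It was 5.23-fold lower in 35S:WIND1 and 4.29-fold lower in T87 than in 2,4-D-induced calli (limma adjusted p = 0.000699 and 0.000974). The changes of -0.47 and -0.18 over seedlings in 35S:WIND1 and T87 calli were not called (limma adjusted p = 0.333 and 0.691).

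WOX10, the neighbour of WOX14 in the gene order of assembly TAIR10.1 and of the same clade, was at -6.38, -5.72 and -6.38 in 35S:WIND1 calli, -6.07, -6.97 and -6.01 in T87 calli and -4.56, -4.64 and -4.39 in 2,4-D-induced calli. In seedlings it was at -5.29, -5.40 and -5.95. It too was highest in 2,4-D-induced calli, 2.02-fold above seedlings (limma adjusted p = 0.0106). It was 3.099-fold lower in 35S:WIND1 than in 2,4-D-induced calli, and 3.54-fold lower in T87 than in 2,4-D-induced calli, with 2 of 3 T87 arrays well above background.

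WUS, the founder of the family, was, like WOX8, highest in 35S:WIND1 calli and next in T87 calli. Its levels were 0.42, 1.21 and -0.35 in 35S:WIND1 calli, -4.91, -3.51 and -4.93 in T87 calli and -8.12, -7.14 and -8.97 in 2,4-D-induced calli. In seedlings they were -8.43, -7.47 and -8.51. No array of the 2,4-D-induced calli or the seedlings was well above background. It was at least 113-fold higher in 35S:WIND1 calli than in seedlings and at least 3.83-fold higher in T87 calli (limma adjusted p = 2.64e-06 and 0.000265). The other relatives WOX3 and WOX6 were not tested, since no group had either of them well above background throughout.

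All 9 listed cofactor genes, TPL and its 4 TPR relatives and 4 HAM genes, were well above background on all 12 arrays. In 35S:WIND1 calli over seedlings none was called by limma, while 3 were higher and none lower at an unadjusted p under 0.05. In T87 calli 2 were called higher and 3 lower, and in 2,4-D-induced calli 2 were called higher. Over all genes 32.1%, 47.4% and 42.8% were called in these comparisons. The median log2 changes of the 9 were -0.054, -0.18 and 0.14, beside 0.07, -0.0036 and 0.15 over all genes. TPR3 rose 2.87-fold in T87 calli and 3.94-fold in 2,4-D-induced calli, and TPL, the TOPLESS corepressor itself, rose 2.33-fold in 2,4-D-induced calli (limma adjusted p = 0.000134, 2.44e-05 and 5.24e-05). TPR1 was 3.00-fold and HAM3 2.94-fold lower in T87 calli.

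The genes with the most similar patterns were sought for each member among the 9269 tested genes with a symbol. They are those with the smallest root mean square difference of centred log2 levels over the 12 arrays. Genes without a symbol could not be picked. For WOX5 these were GH3.1 (0.69), which belongs to a family of auxin-conjugating enzymes, NCED5 (0.80) and ST2A (0.87). For WOX4, RBL2 (0.47) and PSK3 (0.56) followed PXY. For WOX1 they were ALF5 (0.61), MC5 (0.66) and YUC8 (0.66), and for WOX2 CIPK17 (0.42), CXXS1 (0.49) and SK20 (0.54). WOX8 was nearest to ZFHD1 (0.53), DREB19 (0.70) and TI1 (0.77), and WOX9 to GDPD3 (0.79), NRP1 (0.80) and LBD20 (0.83). WOX11 was nearest to TPS9, LUP2 and IDD2 (0.33 each). WOX12, over the 11 arrays with a value, was nearest to PCK2 (0.59), UGT73C7 (0.60) and TMO6 (0.60), a DOF factor of the vascular list that rose 16.7-fold in 2,4-D-induced calli. WOX13 was nearest to GBF3 (0.18), ACT7 (0.19) and RAB7B (0.23), and WOX14 to NF-YA8 (0.38), AUF2 (0.39) and CYCA2;4 (0.40). These values describe likeness on these arrays alone, and WOX9 and WOX11 were well above background on only 4 and 3 of them.

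All changes depend on the scale set by the 75th percentile. With each array's median as the scale, the median log2 change of all genes moved by 0.43 for 35S:WIND1 calli, 0.87 for T87 calli and 0.74 for 2,4-D-induced calli over seedlings, and by -0.44, -0.32 and 0.12 for the 3 comparisons between calli in the order given above. The share of called genes that were higher then became 60.4%, 71.1% and 71.7% over seedlings, in place of 38.8%, 43.99% and 43.4%. Between calli it became 35.5% for 35S:WIND1 over T87 calli and 42.8% for 35S:WIND1 over 2,4-D-induced calli, in place of 54.4% and 59.0%. The deposited table is on a natural log scale with 1 constant per group, whose reason is unknown, and its columns have medians of -1.93, -1.56 and -2.02 for 35S:WIND1 calli, -2.52, -2.40 and -2.57 for T87 calli, -2.49, -2.70 and -2.34 for 2,4-D-induced calli and -1.74, -2.08 and -1.81 for seedlings. That table gave 63.7%, 75.3% and 82.5% for 35S:WIND1 calli over seedlings, T87 calli and 2,4-D-induced calli. Under each of these scalings 6 members were called in 35S:WIND1 calli over seedlings, 5 higher and 1 lower. WOX13 was among them, at 1.34 with the median and 1.41 with the deposited table, beside shifts of all genes of 0.43 and 0.49.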

How the data were processed

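RNA from 12 samples in 4 groups of 3 was labelled with Cy3 and hybridised to 1-colour arrays, per the labels. The deposited values are linear spot intensity from the scanner, background-subtracted by Agilent Feature Extraction 9.1.3.1, per the file headers and the submitters' processing notes. The authors' deposited series table was found here to hold the natural log of that signal minus 1 constant per group, and served as an alternative. No deposited record used here gives a genome build, and TAIR10.1 is the assembly of the gene reference.

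Signals were taken to log2 here and set against the 75th percentile of the array, without control spots. After removal of control and outlier spots, replicate spots were averaged. A probe entered if well above background on all 3 arrays of a group, the brightest probe stood for a gene, and limma 3.58.1 (R 4.3.3) fitted all 12 arrays without a block. The fit was tested on simulated data of 21347 genes for 35S:WIND1 calli over seedlings. It called 77% of 100 genes changed by a log2 of 2 and 87% of 100 changed by 3, with 8 false calls. A gene not called may thus still have changed. Precision is limited by the array number. Of the loci tested, 21220 of 21347 were in the reference table of TAIR10.1. Groups came from the sample titles. Alternatives were normexp (offset 50, on median spot signals), other scalings, the deposited table, filters, probe means, blocks, 2-group fits and each array left out.

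The members and 13 lists of related genes were chosen with earlier results of these data known. All members are named. By rule, the genes named from a list are up to 3 called rises and 3 called falls, with WIND1 and WUS and the 3 genes most like a member. For length only part of them is given, and WRKY2, L1L and the LBD16 levels were chosen after their values were seen.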

Additional observations from a re-analysis of the deposited data

How the results depend on the processing

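Counts moved most with normexp, where 2859, 5155, 4677, 3694, 2459 and 4244 genes were called in place of 6847, 10117, 9144, 7865, 6075 and 8295 (35S:WIND1, T87 and 2,4-D-induced calli over seedlings, then 35S:WIND1 calli over T87 and over 2,4-D-induced calli, then T87 over 2,4-D-induced calli). Members called were 0, 0, 3, 1, 3 and 3 in place of 3, 4, 5, 5, 7 and 7, and in the first 2 comparisons 2 each passed an unadjusted p of 0.05 in limma. On spots not well above background the local background left 38.5 to 58.0 units, against 5.22 to 10.6 units of processed signal. A filter on all 12 arrays gave 4053, 6208, 5852, 4828, 3547 and 5397 genes and 1, 1, 2, 1, 3 and 2 of 5 members fitted, since fewer genes entered. Median scaling and the deposited table each called 6 members in 35S:WIND1 calli over seedlings. Leaving out 1 array gave 3 to 4, 2 to 4, 5 to 6, 4 to 6, 7 to 7 and 7 to 8 members, and 6286 to 7165, 9817 to 10223, 8803 to 9296, 7453 to 8011, 5776 to 6376 and 7998 to 8422 genes.

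The sign turned for dim or uncalled changes and for 1 call, WOX9 in T87 calli over seedlings with normexp (-0.28). In 35S:WIND1 calli over seedlings it turned for WOX11 with normexp (-0.28), WOX2 with median scaling (0.32) and the deposited table (0.38), WOX14 with the deposited table (0.019), and WOX12 with the deposited table (-0.22) and the outlier spot kept (-0.70). In T87 calli over seedlings it turned for WOX14 and WOX12 with quantile normalization (0.21 and 0.37) and with median scaling (0.68 and 0.37), and for WOX11 and WOX2 with median scaling (0.61 and 0.54). In 35S:WIND1 over T87 calli it turned for WOX13 (-0.13) and WOX2 (-0.22) with median scaling and for WOX14 with the deposited table (0.23), and in 35S:WIND1 over 2,4-D-induced calli for WOX9 with normexp (-0.22). The cause of these turns was not tested. Leaving out 1 array turned WOX2 in 35S:WIND1 calli over seedlings (-0.50 to 0.58), over T87 calli (-0.17 to 0.90) and over 2,4-D-induced calli (-0.039 to 1.39), and in T87 over 2,4-D-induced calli (-0.26 to 1.17). It turned WOX14 in 35S:WIND1 calli over seedlings (-0.89 to 0.0032) and over T87 calli (-0.71 to 0.19), and in T87 calli over seedlings (-0.35 to 0.0132). Of all 720 member values with 1 array left out, 695 kept their side of the threshold and sign.

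With the replicate number as a block, which is also the slide, all 31 member calls were kept and 6822 genes were called in 35S:WIND1 calli over seedlings. Each gene's group mean was subtracted from its levels, and arrays were correlated on these deviations over the genes tested. Same-numbered arrays of different groups correlated at -0.14 to 0.12 on this measure. Between T87 and 2,4-D-induced calli these values were 0.090 to 0.12, above the -0.11 to 0.0079 of arrays with unlike numbers. No other pair of groups had this on every slide, so the numbers are not taken as pairs. Deviations from a group mean cancel within the group, so the values for like and unlike numbers are not independent. Dim signal limits WOX9 and WOX11 most.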
